A study of Mus musculus with 12 samples.

Results

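Proteasome subunits, their activators and their assembly chaperones were followed by the names of their genes. All protein-coding mouse genes were taken whose symbol starts with Psma, Psmb, Psmc, Psmd, Psme, Psmf or Psmg followed by a digit, which gave 50 of the 55416 gene identifiers counted, and 4 pseudogene symbols ending in -ps were left out. One of the 50, Psmc3ip, encodes a meiotic recombination protein that shares only the name, and it is counted but given apart. In the test of differences, 49 members passed a filter on low counts. The exception was Psmb11, the thymus-specific beta subunit, with 7 reads over all libraries.

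The libraries came from E14Tg2a.4, a mouse embryonic stem cell line. Its Rpl31, a protein of the large ribosomal subunit, was tagged with FLAG, TEV (a protease site) and AviTag. Plasmids for both fragments (N- and C-terminal) of ALIBi, a split biotinylating system, had been transfected, so that ribosomes were biotinylated either at the endoplasmic reticulum (ER) or in the cytosol. The 12 libraries of poly(A) RNA fell into 4 groups with 3 biological replicates each: ER ribosome-bound RNA, cytosol ribosome-bound RNA, ER whole-cell RNA and cytosol whole-cell RNA. The ribosome-bound groups are mRNAs that came down with biotinylated ribosomes from lysates with cycloheximide, and the whole-cell groups are aliquots of the lysates taken before that purification. All groups share the tagged Rpl31 and the transfection. The share of cells that took up the plasmids is not given in the sources used here, and no label names separate cultures. The p-values therefore speak of the scatter among these 12 libraries, part of which may be technical.

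Per library, 21.1 to 26.9 M reads were counted in genes, and the values below are CPM, the counts scaled to a common library size. Markers of pluripotent cells (8 genes) summed to 8237 to 13355 CPM, against at most 92.9 CPM for 7 fibroblast, 16.2 CPM for 7 endoderm, 23.4 CPM for 6 mesoderm and 89.9 CPM for 6 neural markers. The fibroblast sum was 88.8 to 92.9 CPM in ER ribosome-bound RNA and 30.6 to 32.4 CPM in cytosol ribosome-bound RNA. All 4 tested fibroblast markers were higher on ER ribosomes, as were 29.1% of all genes tested. In whole-cell RNA the fibroblast sum was 35.15 to 35.79 CPM under ER targeting and 35.22 to 37.91 CPM under cytosol targeting. There 0 of the 4 markers were called. The part that the rise on ER ribosomes has in the results below was not tested. Reads aligned to several places made up 4.92% to 5.11% of reads in ER ribosome-bound libraries, 5.58% to 6.17% in cytosol ribosome-bound libraries and 7.25% to 7.58% in whole-cell libraries. Mitochondrially encoded mRNAs summed to 327 to 427 CPM in ribosome-bound RNA and to 18951 to 19902 CPM in whole-cell RNA. In bulk RNA, fewer cells of a type and less RNA per cell cannot be told apart.

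The proteasome is the large protease of the cytosol and nucleus that degrades proteins marked with ubiquitin. Its barrel-shaped core is built of alpha rings on the outside, which gate the entrance, and of beta rings on the inside, which carry the proteolytic sites. A regulatory particle caps the core: a ring of ATPases in its base unfolds the substrate and threads it inward, and its lid removes the ubiquitin chain. Dedicated chaperones assist both the alpha ring and the ATPase ring during assembly and then leave. All of these proteins are soluble and made without a signal peptide, but the proteasome also degrades proteins that are pulled back out of the ER.

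On ER-labelled ribosomes, most proteasome mRNAs were at slightly lower levels than on cytosol-labelled ribosomes, while Psmg2 and Psmg4, 2 of the 4 chaperones of the alpha ring, were at higher levels. Of 49 tested members, 33 were lower (67.3%) and 5 higher (10.2%) in ER ribosome-bound RNA, at an adjusted p of 0.05 (Benjamini-Hochberg over all genes tested, from edgeR's quasi-likelihood fit). Of all 16221 genes tested, 24.6% were lower and 29.1% higher, 53.6% in all. The median log2 change of the members was -0.22, against 0.00 over all genes tested, and the range ran from -0.47 to 0.61. No member changed more than 2-fold, as 18.2% of all genes did. The 3 libraries of both groups did not overlap for 40 members (81.6%), against 58.4% of all genes tested. For comparison, 63 of 93 genes for glycolysis, translation factors, aminoacyl-tRNA synthetases, chaperones and cytoskeleton were lower and 10 higher, with a median of -0.19. Not every tested gene of those lists is counted here, and a gene left out was called higher. The same lists set the scaling to cytosolic genes used below, which therefore moves such genes towards no change by design.

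**Figure D1:**
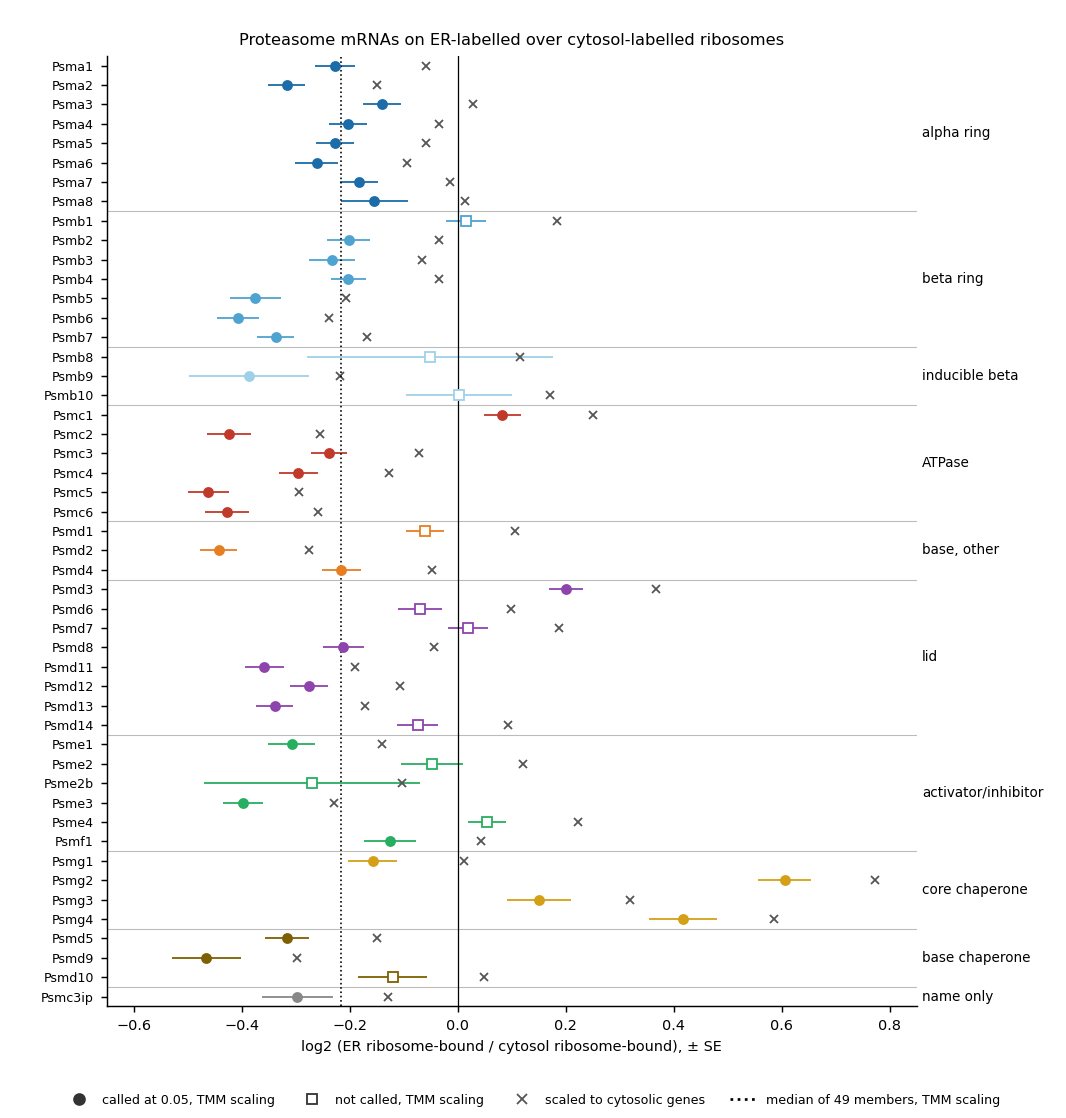
Change of each tested member between ER ribosome-bound and cytosol ribosome-bound RNA, on the log2 scale with its standard error (SE), grouped by role. Filled circles passed the test, open squares did not, crosses give the value when libraries were scaled to cytosolic genes, and the dotted line is the members' median of -0.22. Psmg2 and Psmg4 lie farthest to the right, and Psmd9, Psmc5 and Psmd2 farthest to the left.

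These directions are relative to the scaling of the libraries. When the libraries were scaled to 95 genes for cytosolic proteins outside the proteasome, the median of all genes moved up by 0.17 in this comparison, 16 members were lower and 11 higher, and the members' median was -0.05. A scaling shifts all genes of a library alike. Fits that left out a library also moved the median of all genes in this comparison, by -0.065 to -0.0005. Members called lower under both scalings included Psmc5, Psmc6, Psmc2, Psmd2, Psmd9, Psmb6, Psmb5, Psmb7 and Psme3. Psmg2, Psmg4, Psmg3, Psmd3 and Psmc1 were called higher under both. That is no separate support for them, because scaling to cytosolic genes moves genes up in this comparison. The calls of Psmc1 and Psmg3 ended in 11 and 10 of 12 fits that left out a library.

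All 8 alpha subunits, Psma1 to Psma8, were lower on ER ribosomes, by -0.14 to -0.32 with a median of -0.21, while scaling to cytosolic genes left 1 of them, Psma2, as lower and turned Psma3 and Psma8 to 0.03 and 0.01. Psma2 was at 169, 169 and 167 CPM in ER ribosome-bound RNA, against 206, 217 and 206 CPM in cytosol ribosome-bound RNA. The groups did not overlap, and the change was -0.32 ± 0.035 (log2, SE, n = 3 each; adjusted p = 6.2e-10, edgeR's quasi-likelihood test). Psma3 changed least among those called, with 182, 192 and 189.6 CPM on ER ribosomes against 203, 214 and 204 CPM on cytosol ribosomes. Psma7, the most abundant alpha subunit per length of transcript, was lower by -0.18 ± 0.036. Its germ cell counterpart Psma8 was lower by -0.15 ± 0.062, a call that ended when cytosol ribosome-bound replicate 1 was left out (adjusted p = 0.083).

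Of the 7 constitutive beta subunits, 6 were lower on ER ribosomes and the 3 that carry the proteolytic sites were the lowest. Psmb6, the caspase-like subunit, was at 170.0, 176 and 180.2 CPM on ER ribosomes, against 223, 242 and 234 CPM on cytosol ribosomes, a change of -0.41 ± 0.039 (adjusted p = 3.4e-11). Psmb5, the chymotrypsin-like subunit, changed by -0.38 ± 0.047 and Psmb7, the trypsin-like subunit, by -0.34 ± 0.034. The non-catalytic Psmb3, Psmb4 and Psmb2 were lower by -0.20 to -0.23. Psmb1 was the only constitutive beta subunit that was not called, at 254, 263 and 253 CPM on ER ribosomes against 249.7, 262 and 251 CPM on cytosol ribosomes. Its change was 0.02 ± 0.037, and the libraries of both groups overlapped. Scaled to cytosolic genes, Psmb1 was higher (0.18), Psmb5, Psmb6 and Psmb7 were lower (-0.21, -0.24 and -0.17) and the other 3 were not called.

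The inducible beta subunits replace the catalytic ones in the immunoproteasome, which trims peptides for MHC class I. They were rare. Psmb9 was at 4.92, 6.56 and 6.29 CPM on ER ribosomes and at 7.54, 7.63 and 8.09 CPM on cytosol ribosomes, lower by -0.39 ± 0.111 (adjusted p = 0.0034) but not called with scaling to cytosolic genes (-0.22). Psmb8, with 25 to 43 reads per library, and Psmb10, with 8.62 to 12.7 CPM, differed by -0.05 ± 0.227 and 0.00 ± 0.099 and were not called. Some reads of Psmb9 and Psmb8 are uncertain. Exons of Psmb9 overlap those of the transporter gene Tap1 on the other strand over 5.79% of their length, and Psmb8 overlaps an antisense gene over 14.7%, and the strand setting of the counter is not given. The same holds for Psmb7, Psmd13 and Psmc3, which share 8.25% to 11.8% of their exon length with genes on the other strand, and Psmb5 shares 12.1% with a microRNA gene on its own strand.

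Among the 6 ATPases of the base, 5 were lower on ER ribosomes and 1, Psmc1, was called higher. Psmc5 was at 108, 106 and 109 CPM on ER ribosomes and at 141, 156 and 146 CPM on cytosol ribosomes, which do not overlap. Its change of -0.46 ± 0.039 (adjusted p = 7.2e-13) was close to those of Psmc6 (-0.43 ± 0.041) and Psmc2 (-0.42 ± 0.041). Psmc4 and Psmc3 followed with -0.30 ± 0.036 and -0.24 ± 0.033. Psmc1 was at 236, 239 and 225 CPM on ER ribosomes against 222, 219.6 and 219 CPM on cytosol ribosomes, and its change of 0.08 ± 0.034 (adjusted p = 0.037) kept its call in 1 of 12 fits that each left out a library. It was not called with DESeq2 (0.04), and scaling to cytosolic genes gave 0.25. The ATPases, which work as a ring with 1 copy of each, thus ran from -0.46 to 0.08, and the alpha subunits from -0.32 to -0.14.

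The other base subunits were uneven. Psmd2, a scaffold that docks ubiquitin-like domains, was at 249.97, 265 and 243 CPM on ER ribosomes, against 344, 342 and 346 CPM on cytosol ribosomes. The groups did not overlap, and the change was -0.44 ± 0.034 (adjusted p = 8.4e-14). Psmd4, a ubiquitin receptor, was lower by -0.22 ± 0.037. Psmd1, the second large scaffold, was at 192, 186 and 185 CPM on ER ribosomes against 192, 191 and 203 CPM on cytosol ribosomes. Its change of -0.06 ± 0.035 was not called, and became lower in 9 of 12 fits that left out a library and higher (0.11) with scaling to cytosolic genes. In those 9 fits the median of all genes moved as well, by -0.065 to -0.058.

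The lid was divided as well, with 4 of 8 subunits lower, 1 higher and 3 not called. Psmd3, a lid scaffold, was at 325, 328 and 320.2 CPM on ER ribosomes and at 279, 287 and 281 CPM on cytosol ribosomes, higher by 0.20 ± 0.032 (adjusted p = 1.5e-06). Psmd11, Psmd13, Psmd12 and Psmd8 were lower by -0.36, -0.34, -0.27 and -0.21. The deubiquitinase of the lid, Psmd14, and its partner Psmd7 were not called, at -0.07 ± 0.038 and 0.02 ± 0.037, nor was Psmd6 at -0.07 ± 0.040. Psmd14 was lower in 9 and Psmd6 in 10 of 12 fits that left out a library, and 6 lid subunits were lower with RLE size factors, DESeq2, no filter on low counts or mitochondrially encoded genes left out. The median of all genes moved by -0.065 to -0.058 in the 9 fits of Psmd14, and by -0.07 to -0.04 with those other settings. With scaling to cytosolic genes, Psmd3, Psmd6, Psmd7 and Psmd14 were higher (0.09 to 0.37), and Psmd11, Psmd12 and Psmd13 were lower.

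Of the activators and the inhibitor, 3 of 6 were lower and none higher on ER ribosomes. Psme3, which forms a nuclear activator ring, was at 125, 136 and 136 CPM on ER ribosomes against 169, 182 and 173 CPM on cytosol ribosomes, a change of -0.40 ± 0.038 (adjusted p = 1.8e-11). Psme1, a subunit of the interferon-induced activator ring, was lower by -0.31 ± 0.043, while its partner in that ring, Psme2, was not called (-0.05 ± 0.057). Psmf1, an inhibitor of the core in vitro, was lower by -0.12 ± 0.048, but scaling to cytosolic genes gave 0.04 without a call, and the call ended without cytosol ribosome-bound replicate 1 (adjusted p = 0.16). Psme4, a large nuclear activator, was not called (0.05 ± 0.035). Psme2b, whose protein has the same length as that of Psme2 and whose reads may not be separable from it, was at 1.37 to 2.15 CPM and was not called either.

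Of the 4 chaperones that build the alpha ring, 3 were called higher on ER ribosomes and 1, Psmg1, lower. Psmg2 was at 65.5, 67.4 and 73.6 CPM on ER ribosomes, at 45.5, 45.3 and 44.9 CPM on cytosol ribosomes, at 46.6, 52.1 and 50.7 CPM in ER whole-cell RNA and at 49.4, 52.0 and 51.7 CPM in cytosol whole-cell RNA. The ER ribosome-bound libraries stood above the other 9, and the change was 0.61 ± 0.049 (adjusted p = 2.8e-13). Psmg1, which pairs with Psmg2, was at 59.99, 61.4 and 62.4 CPM on ER ribosomes, against 64.3, 71.0 and 69.8 CPM on cytosol ribosomes. It was lower by -0.16 ± 0.046 (adjusted p = 0.0037), although scaling to cytosolic genes gave 0.01 without a call.

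In the second chaperone pair, Psmg4 was at 28.3, 29.3 and 30.9 CPM on ER ribosomes and 22.8, 23.2 and 20.3 CPM on cytosol ribosomes. It was higher by 0.42 ± 0.063 (adjusted p = 5e-07), without overlap. Psmg3, its partner, was at 27.4, 26.7 and 26.98 CPM on ER ribosomes against 23.8, 24.5 and 24.7 CPM on cytosol ribosomes, higher by 0.15 ± 0.059 (adjusted p = 0.03), a call kept in 2 of 12 fits that left out a library. Psmg3 shares 9.68% of its exon length with an overlapping gene on the same strand. Together the 4 core chaperones summed to 3.05% ± 0.115 of the members' CPM on ER ribosomes and to 2.28% ± 0.0195 on cytosol ribosomes (SD, n = 3 each).

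Of the 3 chaperones of the ATPase ring, 2 were lower on ER ribosomes and 1 was not called. Psmd9, which escorts Psmc3, was at 25.3, 26.2 and 23.4 CPM on ER ribosomes, against 37.4, 32.9 and 33.2 CPM on cytosol ribosomes. Its change of -0.47 ± 0.065 (adjusted p = 1.1e-07) was the lowest of the 49, but 25.5% of its exon length overlaps a noncoding gene on the other strand. Psmd5, which escorts Psmc2, was lower by -0.32 ± 0.041. Psmd10 (gankyrin), which escorts Psmc4, was not called (-0.12 ± 0.064), but was lower in 8 of 12 fits that left out a library. Psmc3ip, the member by name only, was lower by -0.30 ± 0.066, but 21.2% of its exon length overlaps the gene Mlx on the other strand.

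**Figure D2:**
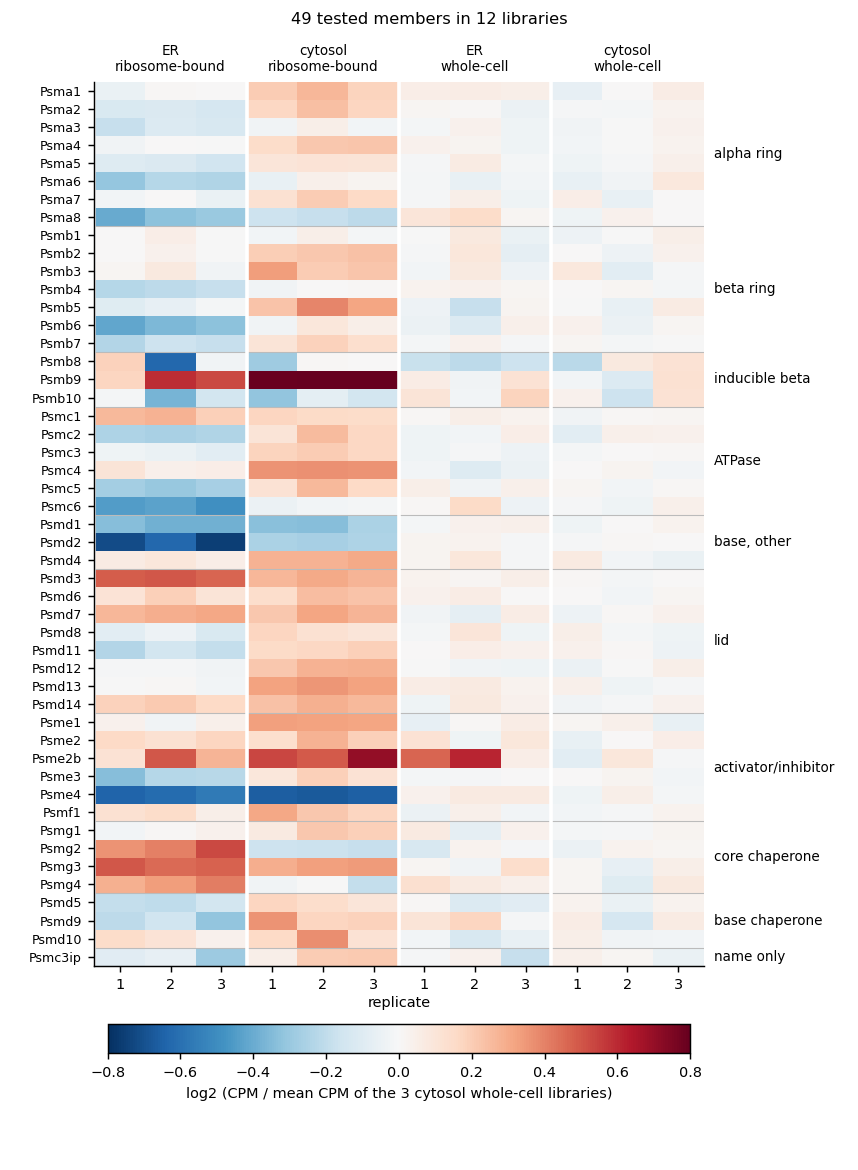
Level of each tested member in each library, as log2 of its CPM over its mean in the 3 cytosol whole-cell libraries, with libraries in columns and members in rows by role. Colours saturate at 0.8 in either direction, which Psmb9 passes in cytosol ribosome-bound RNA. Lid rows are red in cytosol ribosome-bound RNA, Psmg2 is red in ER ribosome-bound RNA, and Psmd2 and Psme4 are blue in both ribosome-bound groups.

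Whole-cell RNA showed no such differences between the targetings. In ER whole-cell against cytosol whole-cell RNA, edgeR's quasi-likelihood test called 0 of 49 members and 0 of 16221 genes (0%), DESeq2 called 0, and 0 members were under an unadjusted p of 0.05, as 634 genes were. The libraries did not overlap for 2 members (4.08%) and for 9.35% of all genes. The members' sum was 6078 to 6203 CPM on ER ribosomes, 6911 to 7120 CPM on cytosol ribosomes, 6569 to 6686 CPM in ER whole-cell RNA and 6526 to 6626 CPM in cytosol whole-cell RNA.

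Cytosol-labelled ribosomes held more proteasome mRNA than the lysate they came from, relative to other genes. Against cytosol whole-cell RNA, 35 of 49 members were higher (71.4%) and 5 lower (10.2%), with 20.8% and 33% of all genes tested, 53.9% in all. The members' median was 0.17 on the log2 scale and that of all genes -0.05. Both groups' libraries did not overlap for 40 members (81.6%) and 58.6% of all genes, and no member changed more than 2-fold, as 5.59% of all genes did. Scaled to cytosolic genes, where the median of all genes moved up by 0.09, 40 were higher and 3 lower.

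All 8 lid subunits were higher on cytosol ribosomes than in the lysate, by 0.13 (Psmd8) to 0.33 (Psmd13), with a median of 0.26. Psmd13 was at 178, 183 and 178 CPM on cytosol ribosomes and at 147, 139 and 142 CPM in cytosol whole-cell RNA. Of the ATPases, 5 of 6 were higher, led by Psmc4 with 0.36 ± 0.036 (adjusted p = 1.2e-10), and Psmc6 was not called (-0.03 ± 0.040). Psma1 led the 5 higher alpha subunits with 0.22 ± 0.037, and Psmb5 the 4 higher constitutive beta subunits with 0.31 ± 0.047. Psmb1, Psmb4, Psmb6, Psma3 and Psma6 were not called, with changes of -0.00 to 0.04. The assembly chaperones Psmd9, Psmd10 and Psmd5 were higher by 0.24, 0.22 and 0.14.

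Psmb9 had the largest rise, with 7.54, 7.63 and 8.09 CPM on cytosol ribosomes against 4.29, 4.04 and 4.73 CPM in cytosol whole-cell RNA. Its change was 0.83 ± 0.117 (adjusted p = 1.7e-07). Psmb8 and Psmb10, which are induced with it, were not called (-0.08 ± 0.222 and -0.18 ± 0.096). Psme1 was higher by 0.32 ± 0.043, Psmf1 by 0.23 ± 0.048, Psme2 by 0.20 ± 0.058 and Psme3 by 0.13 ± 0.037. Psme2b was higher by 0.58 ± 0.208, but not with DESeq2 (0.62, adjusted p = 0.053) nor without cytosol ribosome-bound replicate 3 (adjusted p = 0.075).

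The 5 members that were lower on cytosol ribosomes than in the lysate came from the base, the activators, the alpha ring and the chaperones. Psme4 was at 172, 170.3 and 173 CPM on cytosol ribosomes and 265, 280.2 and 268 CPM in cytosol whole-cell RNA, a change of -0.66 ± 0.034 (adjusted p = 3e-18). Psmd1 changed by -0.31 ± 0.035 and Psmd2 by -0.25 ± 0.034. Psma8 and Psmg2 were lower by -0.19 ± 0.060 and -0.17 ± 0.050. The calls of Psma8 and Psmg2 ended with scaling to cytosolic genes, at -0.10 and -0.08, and 3 of 12 fits that left out a library kept the call of Psma8 and 9 of 12 that of Psmg2. In the fits where the call of Psma8 ended, the median of all genes moved up by 0.050 to 0.055. Psmg3 and Psmg1 were higher by 0.32 ± 0.062 and 0.16 ± 0.046, and Psmg4 was not called (-0.07 ± 0.064).

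ER-labelled ribosomes and their lysate differed less uniformly. Against ER whole-cell RNA, 12 of 49 members were higher (24.5%) and 20 lower (40.8%) in ER ribosome-bound RNA, with 32.5% and 30.6% of all genes tested, 63.1% in all. The members' median was -0.03 and that of all genes 0.01. The libraries did not overlap for 34 members (69.4%) and 65.6% of all genes, and no member passed a 2-fold change, as 18.4% of all genes did. This split depends on the scaling: scaled to cytosolic genes, where the median of all genes moved up by 0.28, 33 were higher and 5 lower.

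Highest on ER ribosomes relative to the lysate were Psmg2 (0.47 ± 0.049), Psmd3 (0.45 ± 0.032), Psmg3 (0.42 ± 0.062), Psmb9 (0.39 ± 0.124), Psmd7 (0.30 ± 0.038) and Psmg4 (0.26 ± 0.063). Psmd3 was at 325, 328 and 320.2 CPM on ER ribosomes and at 237, 235 and 239.7 CPM in ER whole-cell RNA, without overlap. Psmb9 rested on ER ribosome-bound replicate 2, without which its adjusted p was 0.057. Psmc1, Psmd14, Psmc4 and Psmd6 were higher by 0.21, 0.16, 0.12 and 0.10, Psmd10 by 0.17 and Psmf1 by 0.12. The calls of Psmd10, Psmf1 and Psmd6 were not made with DESeq2 or without the filter on low counts, where 9 members in all were higher. They also ended without single ER libraries: Psmd10 and Psmf1 in 4 and Psmd6 in 3 of 12 fits (adjusted p up to 0.11, 0.16 and 0.18).

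Lowest were the large Psmd2 and Psme4. Psmd2 was at 249.97, 265 and 243 CPM on ER ribosomes against 416, 418 and 407 CPM in ER whole-cell RNA, a change of -0.71 ± 0.034 (adjusted p = 9.6e-20). Psme4 was at 174, 177 and 183 CPM on ER ribosomes against 278, 285 and 285 CPM in ER whole-cell RNA, a change of -0.66 ± 0.034, and both groups were far apart. Psmc6, Psma8 and Psmd1 followed with -0.49 ± 0.041, -0.43 ± 0.062 and -0.39 ± 0.035. Psmb6, Psmd9, Psmc5, Psmb10, Psme3, Psmc2, Psmb4, Psma6, Psmd11 and Psmb7 were lower by -0.33 to -0.20. Psmd8, Psma2, Psmd5, Psma3 and Psma5 were lower by -0.14 to -0.10. The calls of Psmd8, Psmd5 and Psmb10 ended in 3, 2 and 2 of 12 fits that left out a library. Scaled to cytosolic genes, the lower calls were 5, and 6 of the 20 members called lower, Psma2, Psma3, Psma5, Psmb7, Psmd5 and Psmd8, were called higher (0.08 to 0.18).

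**Figure D3:**
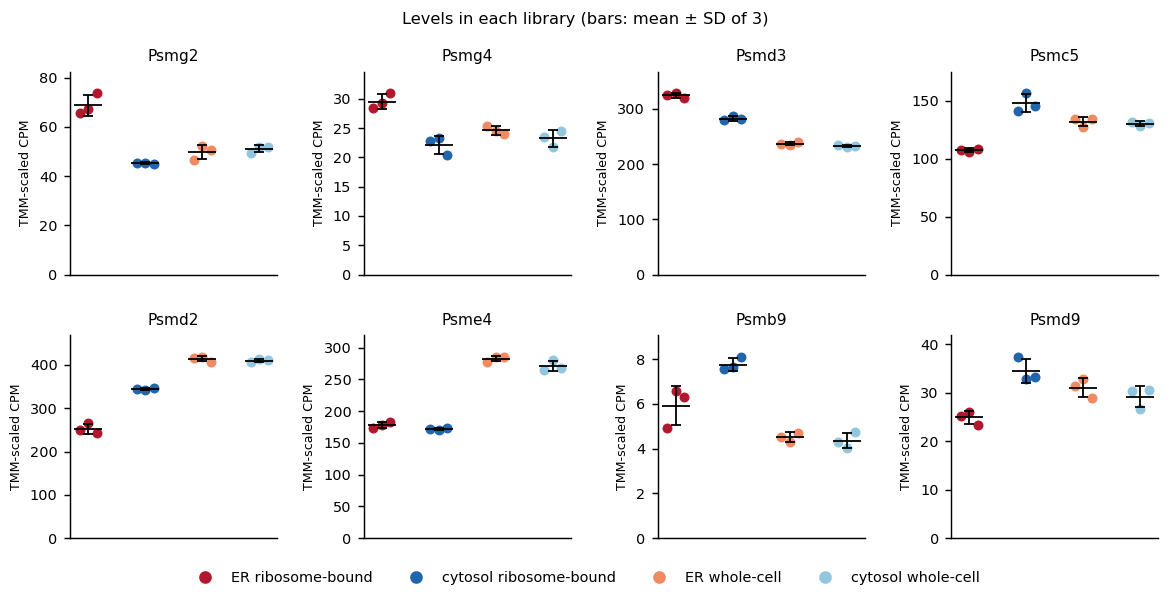
CPM of 8 members in every library, with the mean and SD of 3 libraries as bars, and axes that start at 0. Psmg2 and Psmg4 are highest in ER ribosome-bound RNA, Psmc5 and Psmd9 are lowest there, and Psme4 and Psmd2 are lower on ribosomes of both kinds than in whole-cell RNA.

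The direct test of the difference between both enrichments (ER ribosomes over their lysate, minus cytosol ribosomes over theirs) uses all 4 groups. It therefore shares its ribosome-bound libraries with the comparisons above. It called 32 members lower (65.3%) and 3 higher (6.12%), with 18.6% and 24.8% of all genes tested, 43.4% in all, and the members' median was -0.23, against 0.00 over all genes. No member differed more than 2-fold, as 17.8% of all genes did. The 3 higher were Psmg2 (0.64 ± 0.070, adjusted p = 9e-10), Psmg4 (0.34 ± 0.090) and Psmd3 (0.17 ± 0.046). The call of Psmd3 ended without the filter on low counts and in 5 of 12 fits, which left out replicate 1 or 2 of ER ribosome-bound RNA, replicate 2 of ER whole-cell RNA, or replicate 1 or 3 of cytosol whole-cell RNA (adjusted p up to 0.074). The lowest were Psmd9 (-0.55 ± 0.091), Psmc5 (-0.48 ± 0.055), Psmc6 (-0.47 ± 0.057) and Psmd2 (-0.46 ± 0.048). Psme4, Psmb1 and Psmd7 differed least between the pools, at -0.00 ± 0.049, 0.01 ± 0.052 and 0.03 ± 0.053. Scaled to cytosolic genes, with the median of all genes up by 0.18, 11 members were lower and 8 higher.

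**Figure D4:**
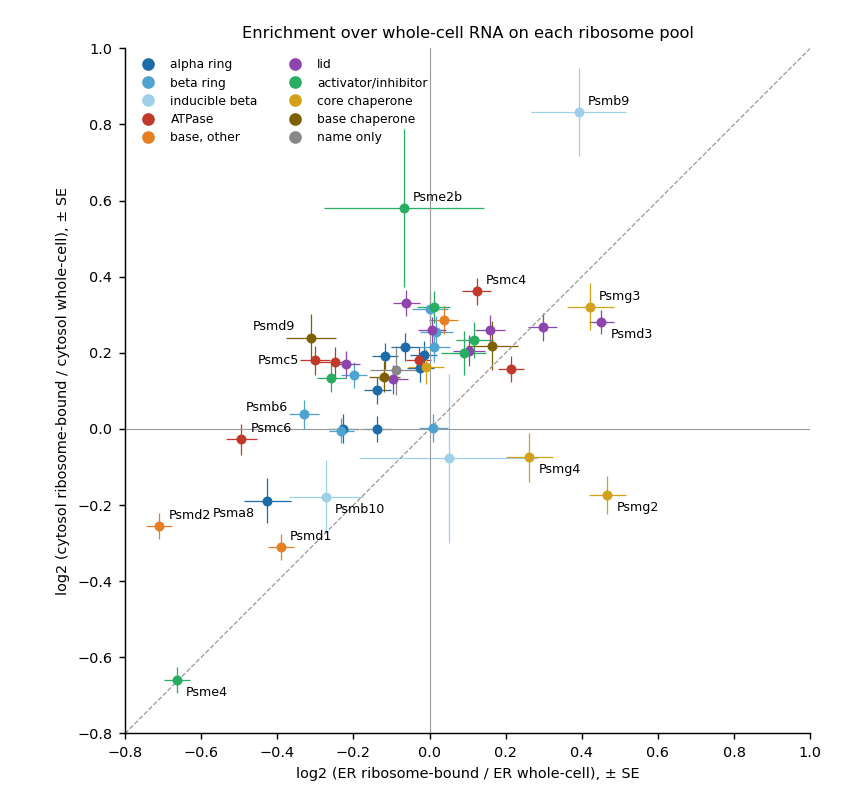
Change of each tested member on ER ribosomes over ER whole-cell RNA (horizontal) against its change on cytosol ribosomes over cytosol whole-cell RNA (vertical), both log2 with SE, coloured by role. On the dashed line both are equal. Most members lie above the line, Psme4 lies on it at -0.66 on both axes, and Psmg2, Psmg4 and Psmd3 lie below it.

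Some of these members stand apart from the rest in protein length. The 3 longest members, Psme4 (1843 residues), Psmd1 (953) and Psmd2 (908), had median changes against the lysate of -0.66 on ER ribosomes and -0.31 on cytosol ribosomes. The other members had -0.02 and 0.18. These 3 were already named above for their low values, so the members' medians restate those values. A division at 900 residues, which lies just under Psmd2 and parts the members in the same way, was applied to 14143 protein-coding genes tested. It gave -0.29 against 0.06 on ER ribosomes and -0.41 against 0.01 on cytosol ribosomes. Over the members without those 3, the rank correlation between protein length and the change on cytosol ribosomes was 0.01 (n = 46), as a description of these genes.

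Few members encode a hydrophobic stretch. A mean Kyte-Doolittle hydropathy above 1.6 over 19 residues, a customary sign of a membrane-spanning or signal segment, occurred in 2 of 49 members (4.08%), Psmd2 (1.89) and Psmd7 (1.83), and in 34.4% of protein-coding genes tested. The median change between ER and cytosol ribosomes was 1.11 for all genes above that value and -0.11 for those not above it. Among the members these medians were -0.212 and -0.216, with Psmd2 at -0.44 and Psmd7 at 0.02. Across the 49 members, the highest hydropathy and the change between ER and cytosol ribosomes had a rank correlation of 0.42, and across all 14143 genes 0.57. Genes share the libraries and the scaling, so neither is a test.

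Per length of transcript, subunits that are built into the core in equal copy number did not have equal mRNA levels. Among the 14 constitutive core subunits without Psma8, the lowest was Psma2 and the highest Psma7 in all 4 groups, a ratio of 5.32 on ER ribosomes, 4.85 on cytosol ribosomes, 4.99 in ER whole-cell RNA and 4.96 in cytosol whole-cell RNA. In cytosol whole-cell RNA these were 63.0 and 312 CPM per kb. Per kb of coding sequence the ratio there was 3.55, between Psmb5 and Psma7. Psma2 was then at 261 CPM per kb, near the median of 259. Its place as lowest thus rests on its annotated transcript of 2911 bases, against 914 for Psma7. The ATPases were closer together, with Psmc1 at 2.77 times Psmc6 on ER ribosomes and 1.77 times Psmc2 in cytosol whole-cell RNA. The lid ran over a ratio of 3.12 on ER ribosomes, where Psmd3 was at 151 CPM per kb and Psmd11 at 48.5 CPM per kb, and of 2.30 in cytosol whole-cell RNA. Transcript lengths come from 1 annotated transcript per gene, and isoforms used in these cells may differ.

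Tissue-specific and inducible subunits stayed minor. Psmb9 made up 1.95% ± 0.242 of the Psmb9 and Psmb6 level per length on ER ribosomes and 1.93% ± 0.0907 on cytosol ribosomes. It made up 1.19% ± 0.0143 in ER whole-cell RNA and 1.121% ± 0.0734 in cytosol whole-cell RNA (SD, n = 3 each). Psmb8 relative to Psmb5 was between 0.745% and 0.980% and Psmb10 relative to Psmb7 between 2.88% and 3.79% in the means of the 4 groups. Psma8 relative to Psma7 was 3.56% ± 0.165 on ER ribosomes, 3.50% ± 0.127 on cytosol ribosomes, 4.66% ± 0.0948 in ER whole-cell RNA and 4.42% ± 0.267 in cytosol whole-cell RNA, and no ribosome-bound library reached a whole-cell one.

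**Figure D5:**
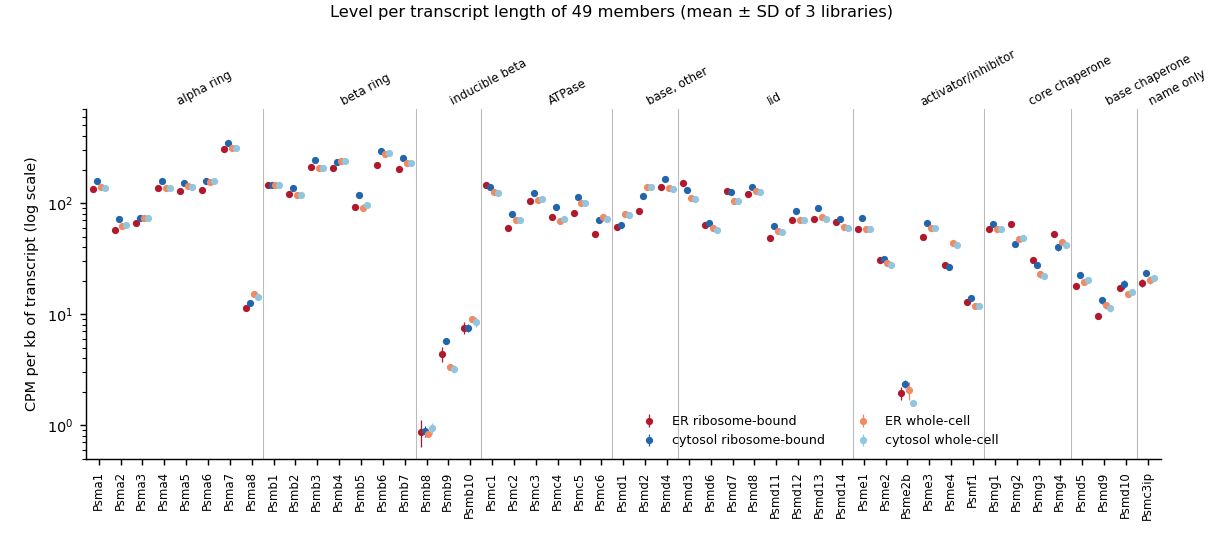
Mean CPM per kb of transcript of each tested member in the 4 groups, on a log axis, with the SD of 3 libraries. Psma7 lies highest, core and regulatory subunits lie mostly between 50 and 350 CPM per kb, and Psmb8, Psmb9, Psmb10 and Psme2b lie below 10 CPM per kb.

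Proteins that work with the proteasome but lie outside the naming rule moved in a similar range. Of 17 tested associated factors, 9 were lower and 1 higher on ER than on cytosol ribosomes, with a median of -0.18. Of all genes tested, 24.6% were lower and 29.1% higher. These values too are relative to the scaling, which moves them up by 0.17 when set on cytosolic genes. Ubqln4, a shuttle for ubiquitinated proteins, was the lowest with -0.49 ± 0.037, and the ubiquitin ligase Ube3a was called higher (0.14 ± 0.061, adjusted p = 0.048). Pomp, the maturation factor of the core, was lower by -0.22 ± 0.037. Of 6 tested genes for ubiquitin and its activating enzymes, 4 were lower and 2 higher, with a median of -0.20 and a range up to 0.21. The ubiquitin-activating enzyme Uba1 was lower by -0.25 ± 0.034.

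Genes of MHC class I peptide loading at the ER showed the opposite sign, and genes around Nfe2l1 were divided. All 8 tested genes of MHC class I peptide loading, which receives the peptides that proteasomes make, were higher on ER than on cytosol ribosomes, with a median of 1.91. Such a sign is not particular to them: all protein-coding genes tested with hydropathy above 1.6 had a median of 1.11. They ranged from Tap2 and Tap1, the peptide transporter, at 1.604 ± 0.081 and 1.62 ± 0.056 to Calr and Pdia3, lumenal chaperones, at 2.15 ± 0.039 and 2.48 ± 0.036. Of 11 genes, the transcription factor Nfe2l1 and 10 that act on it or beside it, 3 were higher and 5 lower, with 29.1% and 24.6% of all genes tested. Their median was -0.08. Nfe2l1 itself, an ER membrane protein that is released to the nucleus and raises transcription of proteasome genes when proteasomes are short, was at 403, 398 and 425 CPM on ER ribosomes, against 144, 148 and 149 CPM on cytosol ribosomes. Its change was 1.48 ± 0.037 (adjusted p = 1.6e-28). Sel1l and Syvn1, which form the ER ubiquitin ligase that turns it over, were higher by 2.14 ± 0.050 and 1.53 ± 0.063, and the soluble Btrc and Nploc4 were lower by -0.42 ± 0.048 and -0.35 ± 0.041.

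Nfe2l1 binds antioxidant response elements, and their core letters TGACNNNGC were searched on both strands from 250 bases before to 50 bases after each gene's start in RefSeq's promoter sequences of GRCm38.p6. Windows were found for 42 of the 50 members. The letters occurred in 6 of the 42 (14.3%) and in 14% of 27025 genes. The members are Psmb5, Psmb6, Psmc6, Psmd9, Psmd12 and Psme4. Stretches around the match before the start, outside annotated exons, are given for the 5 of them that were lower on ER ribosomes, on the gene's strand with the match in capitals:
Psmb5 (chr14:54618023-54618062, minus strand, 47 bases before the start): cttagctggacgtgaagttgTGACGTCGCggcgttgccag
Psmb6 (chr11:70525328-70525356, plus strand, 9 bases before the start): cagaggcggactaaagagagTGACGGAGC
Psmc6 (chr14:45329577-45329625, plus strand, 227 bases before the start): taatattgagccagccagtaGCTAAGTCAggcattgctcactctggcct
Psmd9 (chr5:123228139-123228187, plus strand, 31 bases before the start): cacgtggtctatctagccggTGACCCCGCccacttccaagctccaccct
Psmd12 (chr11:107479278-107479309, plus strand, 247 bases before the start): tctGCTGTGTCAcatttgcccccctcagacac
In Psmc6 and Psmd12 the match reads on the opposite strand. A match is a run of letters and not a binding site. The letters GGCGG, read on either strand, occurred in 35 of 42 member windows (83.3%) and 51.2% of all genes, and CCAAT in 15 of 42 (35.7%) and 41.1%.

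Several members start back to back with another gene, and both mRNAs of such a pair can be set side by side. Psmc5 and Ftsj3, a nucleolar RNA methyltransferase gene, start 100 bases apart on opposite strands. On ER ribosomes relative to cytosol ribosomes Psmc5 was lower by -0.46 ± 0.039, and Ftsj3 was at 148 ± 3.87 CPM on ER ribosomes against 113 ± 4.49 CPM on cytosol ribosomes, higher by 0.38. Psma2 and Mrpl32, a mitochondrial ribosomal protein gene, start 204 bases apart, with changes of -0.32 ± 0.035 and -0.01 ± 0.061. The stretches between the starts outside annotated exons are shown because each lies before both genes of a pair, read on the strand of the proteasome gene with CCAAT and GGCGG on either strand in capitals:
Psmc5 and Ftsj3 (chr11:106256085-106256153, plus strand): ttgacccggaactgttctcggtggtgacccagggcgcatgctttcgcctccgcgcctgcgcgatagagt
Psma2 and Mrpl32 (chr13:14613166-14613239, plus strand): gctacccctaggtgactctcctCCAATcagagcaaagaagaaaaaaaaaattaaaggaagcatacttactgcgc
Psmb9 and Tap1 start 225 bases apart. Tap1 was at 57.2 ± 3.33 CPM on ER ribosomes and 18.7 ± 0.904 CPM on cytosol ribosomes, and Psmb9 at 5.92 ± 0.880 CPM on ER ribosomes and 7.75 ± 0.296 CPM on cytosol ribosomes (SD, n = 3 each).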

How the data were processed

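Reads had been aligned with STAR 2.7.9a to GRCm39 and counted per gene with HTSeq 0.11.2, per the submitters' processing notes, and the deposited values are raw counts for 55416 gene identifiers in each of 12 libraries. Neither the strand setting nor the annotation release or the treatment of multiply aligned reads is stated there. The 5 class totals (8.75% to 12.5% of reads) were left out of library sizes. Symbols, lengths and proteins (translated reference transcripts) came from GENCODE M21 on GRCm38, which matched 52135 identifiers.

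Genes passing edgeR's filterByExpr (minimum count 10) were scaled by TMM and fitted over all 4 groups with edgeR 4.0.16 (limma 3.58.1, R 4.3.3), by glmQLFit and glmQLFTest, with Benjamini-Hochberg adjustment over 16221 genes. The biological coefficient of variation was 3.61%. The standard error is the log2 change over the root of the F statistic. CPM uses the scaled library sizes. DESeq2 1.42.0, other scalings, filters, blocks and left-out libraries were alternatives, and the fit was tested on simulated data.

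The members and lists were chosen with earlier results of these data known. All members are given, and genes outside them were named after their values were seen. Hydropathy had been planned on RefSeq proteins. Some genes of these lists are not reported here.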

Additional observations from a re-analysis of the deposited data

Results flagged for a closer look

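For 35 members, the enrichment on ribosomes over whole-cell RNA differed between ER and cytosol labelling by the direct test of that difference (edgeR's quasi-likelihood test, ER minus cytosol, log2). The groups of 3 libraries are too small for a test of single libraries that stand apart. The enrichment was larger at the ER for the chaperones Psmg2 (0.64) and Psmg4 (0.34) and for Psmd3 (0.17) of the lid, whose call ended in 5 of 12 fits that left out a library. It was smaller at the ER for the chaperones Psmd9 (-0.55), Psmd5 (-0.26) and Psmg1 (-0.17), and the call of Psmg1 ended without replicate 3 of cytosol ribosome-bound RNA or replicate 1 of ER whole-cell RNA (adjusted p up to 0.11). In the base it was smaller for Psmc5 (-0.48), Psmc6 (-0.47), Psmd2 (-0.46), Psmc2 (-0.42), Psmd4 (-0.25), Psmc4 (-0.24) and Psmc3 (-0.21). In the lid it was smaller for Psmd13 (-0.39), Psmd11 (-0.39), Psmd12 (-0.25) and Psmd8 (-0.23).

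Among beta subunits it was smaller for Psmb9 (-0.44), Psmb6 (-0.37), Psmb7 (-0.34), Psmb5 (-0.31), Psmb3 (-0.24), Psmb4 (-0.23) and Psmb2 (-0.20), and the call of Psmb9 ended without replicate 1 of ER ribosome-bound RNA, replicate 3 of cytosol ribosome-bound RNA or replicate 1 of ER whole-cell RNA (adjusted p up to 0.074). All 8 alpha subunits were among them, with Psma2 (-0.31), Psma1 (-0.28), Psma5 (-0.24), Psma8 (-0.24), Psma6 (-0.23), Psma4 (-0.21), Psma7 (-0.18) and Psma3 (-0.14). Psme3 (-0.39), Psme1 (-0.31) and, by name only, Psmc3ip (-0.24) were the others, and the call of Psmc3ip ended in 2 of 12 fits (adjusted p up to 0.085). Scaled to cytosolic genes, 11 members were lower and 8 higher.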

How the results depend on the processing

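Scaling to cytosolic genes moved the calls most. It gave 11 members higher and 16 lower between ER and cytosol ribosomes, 33 and 5 between ER ribosomes and their lysate, 3 lower between cytosol ribosomes and theirs, and 8 and 11 for the difference of enrichments. Under it, 10 members turned sign between ER and cytosol ribosomes, 4 of them called before: Psma3 (0.0285), Psma8 (0.0136), Psmf1 (0.0426) and Psmg1 (0.0109), none of which was then called. Against the ER lysate, 20 members turned sign, 12 of them called before, among them Psma2 (0.16), Psmb10 (0.0027), Psmb7 (0.0791), Psmd11 (0.0586) and Psme3 (0.019), and Psmg1 (0.27), not called before, turned too. In the difference of enrichments, 11 did, 3 of them called before: Psma3 (0.0491), Psma7 (0.0012) and Psmg1 (0.0119). Psme4 (0.18), not called before, was then higher. Between ER and cytosol ribosomes, 3 members were higher, against 5, with RLE size factors, DESeq2, no filter on low counts or mitochondrially encoded genes left out, where Psmc1 and Psmg3 lost their calls. Without a filter, 3 members were lower between cytosol ribosomes and their lysate.

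Leaving out each library in turn gave 3 to 4 higher and 32 to 37 lower between ER and cytosol ribosomes, 8 to 12 and 18 to 20 between ER ribosomes and their lysate, 33 to 36 and 3 to 5 between cytosol ribosomes and theirs, and 2 to 3 and 29 to 36 for the difference. In most of these fits the median of all genes moved by -0.065 to -0.058 between ER and cytosol ribosomes. Between cytosol ribosomes and their lysate it moved by 0.050 to 0.055. Exceptions were the fits without replicate 1 or 3 of cytosol ribosome-bound RNA or replicate 1 of ER whole-cell RNA (-0.004 to 0.003). RLE size factors, DESeq2, mitochondrially encoded genes left out and no filter moved it by -0.07 to -0.04 between ER and cytosol ribosomes. The cause was not tested. Libraries with the same replicate number did not deviate together in all pairs of groups (correlations of -0.27 to 0.26). Within a targeting, where they may share a lysate, the correlation was under 0.1 in 3 of 6 pairs and ran from -0.01 to 0.26. Between differently numbered libraries of the same targeting it ran from -0.26 to 0.06. A fit with the replicate number as a block left the counts at 5 and 33, 12 and 20, 35 and 5, and 3 and 32. A block within each targeting left the last 3 of these pairs of counts as they were. At about 1 to 2 CPM, Psmb8 and Psme2b had standard errors of 0.20 to 0.24, so changes well above that size can go uncalled too. Psme2b, at -0.27 ± 0.201 between ER and cytosol ribosomes, was not called.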
